A study of Drosophila melanogaster with 8 samples.

Results

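Unplaced sequence U of the FlyBase r5 assembly of Drosophila melanogaster carried 827 of the 16190 regions in the authors' combined list of histone H1 enrichment. The members are all rows of that list placed on U, whatever their width or score. The list comes from chromatin immunoprecipitation and sequencing (ChIP-seq) of whole Oregon-R embryos, a wild-type strain, aged 14 to 16 h, with no treatment or transgene named in the labels. The 4 immunoprecipitated libraries each have a region list, and 4 input libraries were sequenced beside them. Whether the replicates are separate collections of embryos is not said in the labels, so the p-values measure the spread between these 4 samples, which may be technical. The combined list was made from the replicates and is not independent of them. A whole embryo mixes many cell types, and region lists cannot say in which of them H1 was bound.

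Linker histone H1 binds the nucleosome where DNA enters and leaves it, together with the DNA that links neighbouring nucleosomes, and helps to compact chromatin. In Drosophila it is needed for the structure of pericentric heterochromatin and for silencing of transposable elements there. U is an artificial sequence in which scaffolds that could not be assigned to a chromosome were joined end to end, and much of it is repeat-rich DNA. A read from a repeat may match many places, so the number of reads that can be placed varies along such sequence. Neighbours on U need not be neighbours in the genome, and the joins between scaffolds were not analysed here. No bases or genes are given for the regions, because the gene table used here belongs to another build than the coordinates.

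The 4 replicate lists placed 136, 104, 149 and 168 regions on U for replicates 1 to 4. Replicates 2 and 3 stood apart in 1 respect over the whole series, since the combined list held fewer of their regions than of those of replicates 1 and 4, and replicate 2 had the fewest regions. Results that rest on these lists were therefore also computed without them. The shortest region of U was 1302, 1302, 1311 and 1305 bp in the replicate lists and 1001 bp in the combined list. A narrow member, up to 1300 bp wide, thus has no replicate region of its own width to match. The depth of each library is unknown, so H1 may be present where no region was called.

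H1 regions were sparser on U than on the 6 major arms (2L, 2R, 3L, 3R, 4 and X) in every replicate. They covered 2.29%, 1.66%, 2.48% and 2.89% of the 10049037 bp of U in replicates 1 to 4. The same lists covered 3.35%, 2.55%, 3.37% and 4.04% of the major arms. U lay below the arms within each list, with a log2 ratio of -0.52 ± 0.08 (SD, n = 4) in 4 of 4 replicates. In regions per Mb the log2 ratio was -0.55 ± 0.06 (SD, n = 4), from 13.9 ± 2.68 on U and 20.2 ± 3.44 on the arms. The exact two-sided sign-flip permutation test gave p = 0.13 for both ratios, the smallest that 4 values allow, and 0.21 after Benjamini-Hochberg adjustment over 10 tests. Against the 6 Het sequences, the assembled pieces of heterochromatin, the log2 ratio of the covered share was -1.0 ± 0.07 (SD, n = 4). When regions scoring below their list's median were dropped, it was -0.06 ± 0.05 for the covered share and -0.01 ± 0.08 for regions per Mb against the arms (SD, n = 4). In the combined list 14.3% of U was covered, against 21.9% of the major arms and 28.7% of the Het sequences together. Low coverage was not particular to U: the X was covered at 14.9%, 2LHet at 14.9%, XHet at 14.6%, YHet at 10.8% and chromosome 4 at 5.17%.

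Along U, coverage was highest at the start and lower towards the end, while scores ran the other way. In successive windows of 1 Mb the combined list covered 31.3%, 24.6%, 20.4%, 14.6%, 6.89%, 13.8%, 11.8%, 7.56%, 6.03% and 6.71% of the sequence. The number of members per window fell from 143 in the first to 45 in the tenth, with 3 more in the last 49037 bp. The decline was not even, since the fifth window lay below the sixth and the seventh. Coverage also declined in the replicate lists, whose mean was 5.75% ± 1.09 in the first window, 4.26% ± 1.60 in the second and 3.28% ± 0.94 in the third (SD, n = 4). By the combined list the fifth, the ninth and the tenth window were the least covered, and there the replicate means were 0.96% ± 0.37, 0.80% ± 0.15 and 0.91% ± 0.29 (SD, n = 4). Between pairs of replicates the cover of the 10 windows correlated with Pearson's r from 0.88 to 0.97, a description only, since windows share libraries and neighbouring sequence.

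**Figure D1:**
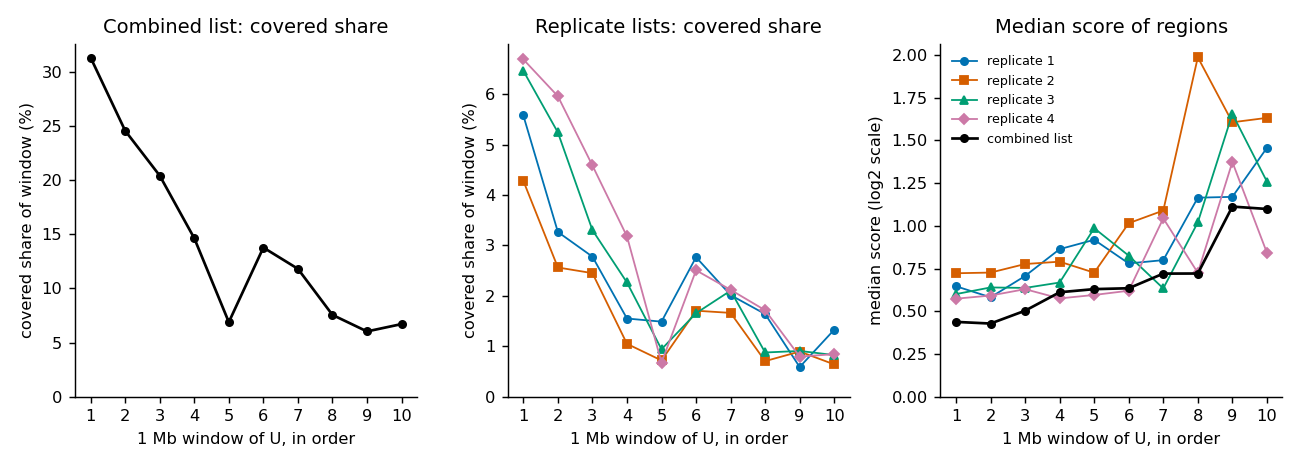
Covered share of each 1 Mb window of U in the combined list (left) and in the 4 replicate lists (middle), and median score of the regions in each window on the authors' log2 scale (right), plotted by window order. Coverage fell from 31.3% in the first window to 6.71% in the tenth, and the combined median score rose from 0.44 to 1.10.

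Comparing the first 5 Mb with the rest of U, a split chosen after the windows were seen, gave the same picture in each replicate. The first 5 Mb were covered at 2.93%, 2.21%, 3.64% and 4.22% in replicates 1 to 4. The rest was covered at 1.65%, 1.11%, 1.32% and 1.58%. The lowest value of the first 5 Mb lay above the highest of the rest, and the mean log2 ratio was 1.17 ± 0.31 (SD, n = 4), a 2.26-fold difference. The exact permutation p was 0.13, the smallest possible, and 0.15 after adjustment over the 7 tests added in this way. Median scores went the other way in 4 of 4 replicates, by -0.42 ± 0.19 (SD, n = 4). They were 0.67, 0.74, 0.64 and 0.59 in the first 5 Mb and 0.99, 1.34, 1.20 and 0.79 in the rest. Without replicates 2 and 3 the score difference was -0.26. Members of the first 5 Mb were touched by a replicate region more often, by 6.44 ± 3.07 percentage points (SD, n = 4), again in 4 of 4 replicates and with the same p.

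The spacing of members was described by blocks, and whether they clump beyond what their density gives was not tested. Joining members across gaps under 10 kb gave 267 blocks, of which 109 held a single member, 146 held 2 to 9 and 12 held 10 or more. These 12 large blocks held 200 members, 24.2% of all, on 8.18% of the length of U. The first 5 Mb held 11 of the 12, and 62.9% of all members. The block with most covered bases, U:337764-427004, had 22 members that covered 55484 bp, 62.2% of its span, and 16 of them were touched by a replicate list. Replicates 1 to 4 placed 9, 5, 8 and 6 regions in it. The next, U:544313-649695, had 25 members over 46621 bp, with 3, 7, 8 and 4 replicate regions. In U:461425-531070 the 15 members covered 41194 bp, and the replicates had 6, 2, 2 and 5 regions there. All 3 blocks fell within the first window and were populated in every replicate list. Members of large blocks had a median score of 0.44 and 35.5% were narrow, whereas members alone in their block had a median of 0.82 and 47.7% were narrow. Of the members in large blocks 50.0% were touched by a replicate list, against 36.7% of the lone members.

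Long stretches of U carried no member. The median gap between neighbouring members was 4926.5 bp, and 25 gaps of 50 kb or more made up 18.3% of U, 12 of them starting beyond 5 Mb. The longest, U:685621-819627, spanned 134007 bp in the first window, behind the 3 blocks described above, and no replicate list had a region in it. The next, U:4703123-4816971, spanned 113849 bp and was also empty in every replicate list. In U:8354687-8457279, of 102593 bp, replicate 2 alone had 2 regions.

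Each region carries 1 score from the authors. In each list the scores equal the log2 of a ratio of whole numbers plus 1 constant for the list, within a relative tolerance of 1e-12. This held for 16190 of 16190 combined regions and for 99.9% to 100.0% of the regions of each replicate list. With the constant moved by 0.1 it held for at most 0.07%. The constant is fixed only up to a ratio of whole numbers, and the choice with the smallest whole numbers over the list was taken. No source used here says what the numerator and the denominator count. They can be read only in lowest terms, so a small denominator may stand for a larger one where the ratio cancels. Scores are compared here within a list, as differences on the log2 scale.

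Regions on U had higher scores than those on the major arms in every replicate list. The median score on U was 0.75, 0.81, 0.67 and 0.60 in replicates 1 to 4, and that of the arms was 0.59, 0.69, 0.59 and 0.56. U was higher within each list, by 0.10 ± 0.05 (SD, n = 4) on the log2 scale, with an exact permutation p of 0.13, adjusted 0.21. With regions below their list's median score dropped, the difference was 0.16 ± 0.05 (SD, n = 4). U was strongly represented at the top of each list: 52.2%, 45.2%, 41.6% and 39.3% of its regions fell in the top 10% of scores in replicates 1 to 4, a mean of 44.6% ± 5.64 (SD, n = 4). In the combined list 484 of the 827 members, 58.5%, lay in the top 10%, scores from 0.50 up, and they made up 29.9% of it. Members were also found in the lowest 10%, which held 46 of them, and their scores ran from 0.18 to 3.46 with a median of 0.57.

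The whole numbers behind the scores were smaller on U. In the combined list the median denominator was 77 on U and 250 on the major arms. In replicates 1 to 4 it was 65, 25, 57 and 74.5 on U and 137, 71, 99 and 132 on the arms. U was lower within every list, by a log2 ratio of -1.05 ± 0.33 (SD, n = 4), with an exact permutation p of 0.13, adjusted 0.15. A denominator of 10 or less belonged to 119 members, 14.4%, where 3.01% of all combined regions had one. Within U the denominators fell along the sequence, from a median of 224 in the first window to 13 in the ninth and 17 in the tenth. In the first 5 Mb the replicate medians were 91, 54.5, 70 and 96, and in the rest 45.5, 8.5, 19 and 37. The log2 ratio was 1.73 ± 0.73 (SD, n = 4), positive in 4 of 4 replicates, and 1.19 without replicates 2 and 3. High score, small whole numbers and late position on U thus moved together, and the part of each in the others was not tested.

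Where the whole numbers were large, scores on U were close to those on the arms. The 254 members whose numerator and denominator summed to more than 400 had a median score of 0.40, against 0.39 for the 8614 arm regions in that class. The 195 members with a sum of up to 50 had a median of 1.28, against 0.46 for 719 arm regions. That class made up 23.6% of the members and 5.12% of the arm regions. It is not alike in both: a ratio of 1 over 1 in lowest terms, which can stand for any pair of equal numbers, belonged to 243 of the 719 arm regions and to 8 of the 195 members. The share touched by at least 1 replicate list rose with the sum on U, from 21.5% in the lowest class to 61.4% in the highest, and on the arms from 32.1% to 50.0%. These classes also differed in width and were not matched for it. Median width was 1125 bp in the lowest class and 2064.5 bp in the highest on U, and 1290 and 1753 bp on the arms.

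**Figure D2:**
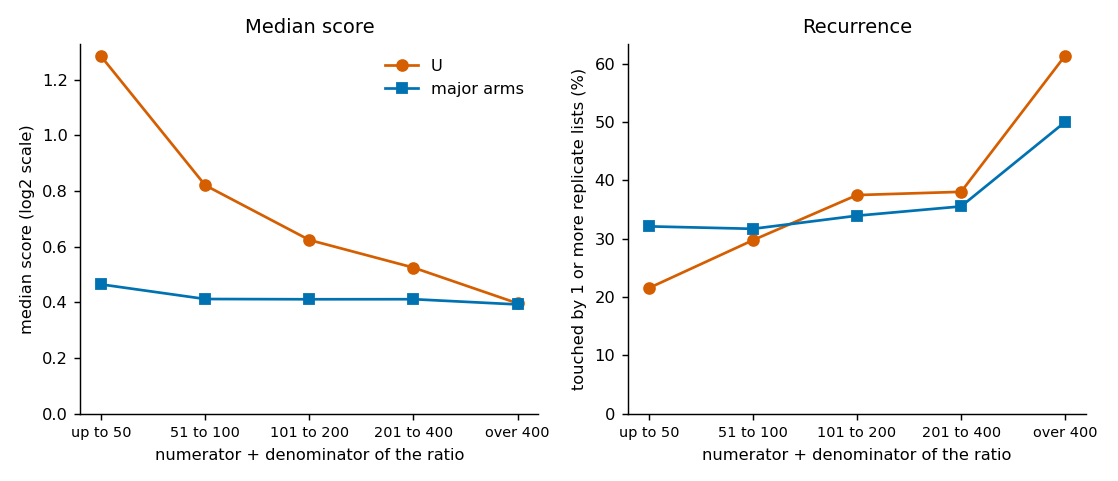
Median score on the authors' log2 scale (left) and percent of combined regions touched by 1 or more replicate lists (right), by class of the sum of the whole numbers behind the score in lowest terms, for U and for the major arms. Scores on U fell from 1.28 in the lowest class to 0.40 in the highest, where the arms stood at 0.39. The classes also differ in the width of their regions.

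The 10 members of highest score show what the top of the list consists of. The scores were 3.46 for 4 of them, 3.27 for 2, 3.05 for 2 and 2.92 for 2, and equal scores arose because the whole numbers were equal. The members at U:5483419-5484428, U:8709288-8710288, U:8755792-8756792 and U:9252380-9253380 had the numerator 8 and the denominator 1. Those at U:6388121-6389121 and U:9887596-9888596 had 7 over 1, those at U:3747633-3748681 and U:4278302-4279310 had 6 over 1, and those at U:2240059-2241194 and U:8280579-8281600 had 11 over 2. All 10 were narrow, from 1001 to 1136 bp, and none was touched by a replicate list. The next score, 2.79, was shared by 4 members. In all, 38 members had a denominator of 1, with scores from 0.46 to 3.46. Of these 38, 4 were touched by a replicate list, where 40.0% of all members were. Among narrow members, as the 10 above all are, the share was 18.9%. It was 15.4% for narrow members at or above the median score of U. The 38 were not matched for width. The 38 include 8 with 1 over 1, which can stand for any equal numbers, and 2 of those 8 were touched. Over U as a whole, 490 members, 59.3%, had exactly the score of another combined region, which was no more common than in the combined list as a whole, at 64.8%.

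On U a wider member had a lower score. The relation was weak on the arms, and in the replicate lists its rank correlation had no common sign. The median score was 0.85 for the 333 members up to 1300 bp, 0.60 for wider ones up to 1500 bp, 0.52 for the class up to 2000 bp, 0.45 for the class up to 3000 bp and 0.42 for the 73 members over 3000 bp. On the arms the same classes had medians of 0.41, 0.38, 0.38, 0.41 and 0.41. The gap between U and the arms therefore closed with width, from 0.44 in the narrow class to 0.02 above 3000 bp. Across the 827 members Spearman's rho between width and score was -0.50, and -0.30 without the narrow members, whereas over the arm regions of the list it was -0.10. Members share libraries and depth, so these are descriptions. In replicates 1 to 4 rho over the regions of U was -0.17, 0.08, -0.09 and -0.04, and on the arms it was 0.17, 0.18, 0.20 and 0.18. The replicate lists hold no narrow regions. Of the Het sequences, 2LHet and YHet came closest to U, with rho of -0.50 over 30 regions and -0.35 over 26, and YHet had a median score of 0.81 and a median denominator of 51.

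**Figure D3:**
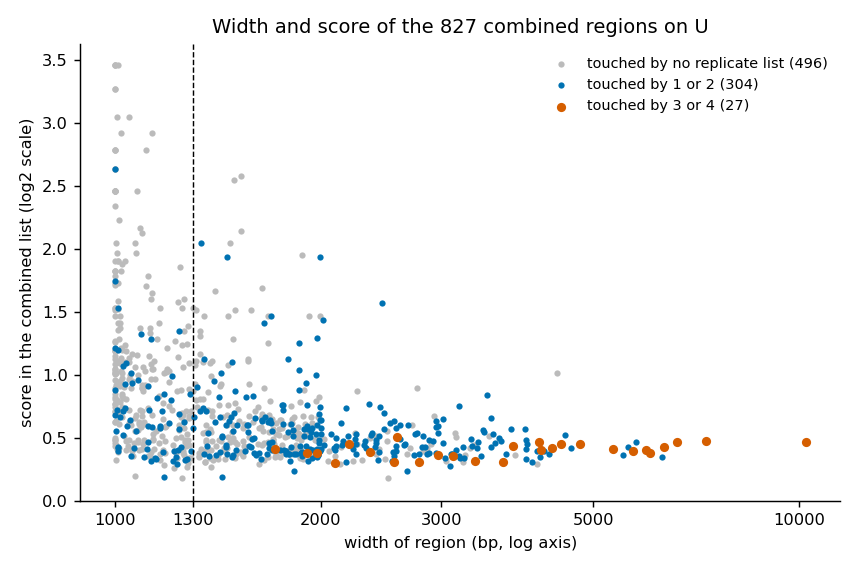
Width (log axis, bp) and score (the authors' log2 scale) of the 827 combined regions on U, coloured by how many replicate lists touch them, with a dashed line at 1300 bp. The highest scores lie at the left edge among regions touched by no list, and the 27 regions touched by 3 or 4 lists all have scores of at most 0.50.

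The 333 narrow members made up 40.3% of the regions of U, where 34.2% of all combined regions were narrow, and held 25.4% of the covered bases. Their median score was 0.85 and that of the 494 wider members 0.48. Their median denominator was 31, against 151 for the wider members and 186 for narrow regions of the arms. Narrow members made up 27.3% of the members in the first window and 65.3% in the ninth. The shortest width of the list, 1001 bp, belonged to 54 of them, 6.53% of all members, where 2.51% of all combined regions had it. The 10 widest members were the opposite in each of these respects. They ran from 5628 bp to the 10233 bp of U:405544-415776, and had scores from 0.35 to 0.48 and denominators from 673 to 2167. In the first 5 Mb lay 9 of the 10, and 69.0% of the 494 wider members.

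Narrow members were touched by replicate regions less often than wider ones. A member counts as touched if at least 1 of its bases lies in a region of the replicate list. Replicates 1 to 4 touched 3.00%, 4.80%, 6.31% and 7.21% of the narrow members and 22.9%, 11.1%, 16.0% and 28.7% of the others. The groups did not overlap, and the mean difference was -14.4 ± 7.49 percentage points (SD, n = 4), with an exact permutation p of 0.13, adjusted 0.21. A wide region offers more bases to touch, so the midpoint of the member was used as well. It lay in a replicate region for 4.28% ± 1.61 of the narrow members and 15.3% ± 8.66 of the others (SD, n = 4), with a difference of -11.1 ± 8.23 points in the same direction in 4 of 4 replicates. The contrast was general to the combined list: at least 1 replicate list touched 18.9% of the narrow and 54.3% of the wider members, and 19.9% and 56.8% of the narrow and wider regions of the whole list. Without replicates 2 and 3 the midpoint difference was -18.0 points. The limit of 1300 bp marks no sharp edge: of the 39 members up to 50 bp below it 6 were touched, and of the 28 within 50 bp above it 7 were, with median scores of 0.63 and 0.81.

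Members of high score were touched less often than members of low score, within both width groups. Of the members at or above the median score of U, replicates 1 to 4 touched 11.1%, 4.11%, 3.86% and 10.4%. Of those below it they touched 18.6%, 13.1%, 20.3% and 29.8%. The lowest value of the low-score members lay above the highest of the high-score members, with a mean difference of -13.1 ± 5.75 points (SD, n = 4), an exact permutation p of 0.13 and an adjusted p of 0.21. With at least 50% of the member covered, the difference was -7.22 points. With the members ranked by score and cut into 4 groups of equal size, 54.1%, 49.3%, 40.3% and 16.4% were touched by at least 1 list, from the lowest scores to the highest. Among narrow members 28.0% of those with low scores and 15.4% of those with high scores were touched, and among wider members 58.8% and 46.0%. Over all combined regions the median score was 0.40 for those touched by no list, 0.40 by 1 and 0.40 by 2. It was 0.42 by 3 and 0.43 by 4. On U the same medians were 0.67, 0.55, 0.42, 0.41 and 0.41. The fall on U was thus not seen over the list as a whole.

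No common direction was found between members and arm regions of equal width in how often they recurred in the replicate lists. At least 1 list touched 331 of the 827 members, 40.0%, where 44.2% of all combined regions were touched. Replicates 1 to 4 touched 14.9%, 8.59%, 12.1% and 20.1% of the members and 16.4%, 11.3%, 14.6% and 19.6% of the arm regions. The difference was -1.57 ± 1.46 points (SD, n = 4), below 0 in 3 of 4 replicates, with an exact permutation p of 0.25. It became 0.03 ± 1.24 with at least 50% of the region covered and 0.02 ± 1.22 with the midpoint. Against arm regions of the same widths the difference was 0.03 ± 2.20 points (SD, n = 4), above 0 in 2 of 4 replicates, with an exact permutation p of 1.0. Within 5 width classes the mean differences lay between -1.02 and 2.94 points, each smaller than its SD over replicates.

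**Figure D4:**
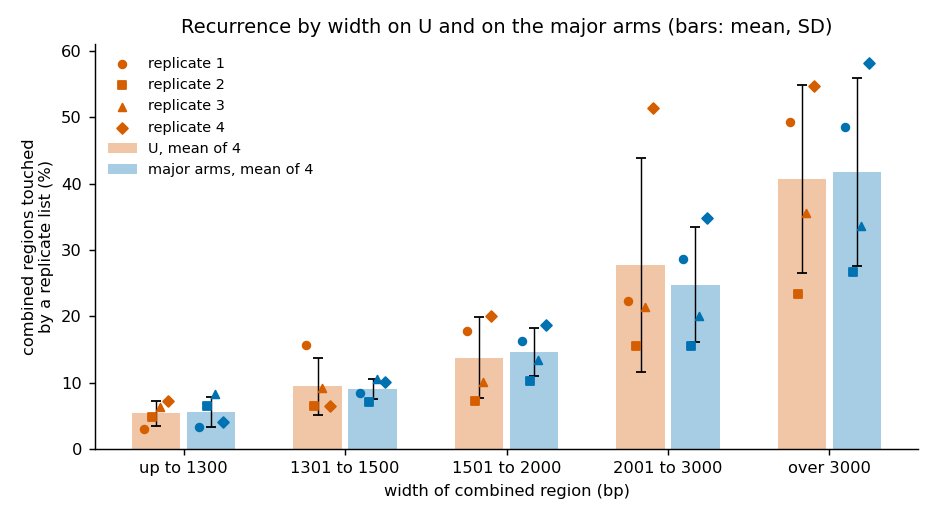
Percent of combined regions touched by a replicate list, by width class (bp), on U and on the major arms. Symbols are the 4 replicates, bars their mean and error bars 1 SD (n = 4); on U the mean rose from 5.33% up to 1300 bp to 40.8% over 3000 bp, and on the arms from 5.51% to 41.8%.

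Of the members, 234 were touched by 1 list, 70 by 2, 22 by 3 and 5 by all 4, and 496 by none. The 27 touched by 3 or 4 lists compare with 3.56% of all combined regions, and the 5 touched by all 4 with 0.729%. On U 2.66% were touched by exactly 3 lists and 0.605% by 4, against 2.83% and 0.729% of all combined regions, so the counts were close to that background. The first 5 Mb held 62.9% of all members, 69.0% of the wider ones and 22 of these 27. Of the 27 members 0 were narrow. Their scores, from 0.30 to 0.50, were all below the median of U. Replicate 1 had a region in 22 of the 27, replicate 2 in 17, replicate 3 in 23 and replicate 4 in 24. The requirement of 3 lists was met by members as short as U:1669403-1671120, of 1718 bp, and as long as U:405544-415776. In the latter, replicates 1, 3 and 4 covered 51.1%, 29.0% and 44.4% of the bases, and replicate 2 covered none.

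The 5 members touched by all lists had replicate regions that coincided. In each of the 5 some bases lay in all 4 lists at once, between 782 and 1942 bp with a median of 1237 bp. On the major arms the same was true of 28 of the 99 regions touched by all lists, and on the Het sequences of 5 of 14. The count of 5 is small, and this comparison was chosen after the values were seen and was not tested. In bases, 0.868% of the sequence of U covered in any replicate list was covered in all 4, against 0.123% on the arms and 0.283% on the Het sequences. The share covered in a single list was 83.9% on U and 84.7% on the arms.

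The closest match was at U:4469622-4472182, a member of 2561 bp with a score of 0.31, numerator 2432 and denominator 2707. Replicates 1 to 4 had regions there of 2056, 2178, 2027 and 2185 bp, with scores of 0.29, 0.36, 0.28 and 0.31. The 4 regions shared 1942 bp, U:4470097-4472038, which is 75.8% of the member. The member lay in the fifth window, one of the least covered, away from the dense start of U. At U:3130904-3133485 (2582 bp, score 0.50) the replicate regions were 1585, 1488, 1597 and 1437 bp wide with scores of 0.62, 0.79, 0.57 and 0.54, and shared 782 bp.

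The other 3 members with regions in every list lay in the first 2 Mb. At U:1539380-1543072, of 3693 bp and with a score of 0.30, the replicate regions were 1673, 2924, 3007 and 3624 bp wide. They shared 1237 bp. At U:1197610-1203578, of 5969 bp and with a score of 0.41, replicate 3 had 2 regions and the others had 1 each, with 1630 bp in common. The widest of the 5, U:232420-239054, of 6635 bp and with a score of 0.47, held 1 region in replicates 1 and 2, 3 in replicate 3 and 2 in replicate 4. There the lists covered 37.4%, 24.5%, 76.6% and 59.0% of the member, and 1171 bp lay in all of them. In all 5 members the denominators were large, from 471 to 2707, against the median of 77 on U.

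Between single replicate lists, overlap on U was close in the mean to that on the arms. Over the 12 ordered pairs of lists, 18.7% ± 5.74 (SD) of the U regions of the one touched the other, and 18.6% ± 2.74 of the arm regions did. The values on U ran from 9.56% for replicate 1 in replicate 2 to 28.9% for replicate 3 in replicate 4, and U was higher in 5 of 12 pairs.

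Seen from the replicates, a smaller share of regions on U than on the arms was held by the combined list in 3 of 4 lists. It touched 90.4%, 62.5%, 64.4% and 97.6% of the U regions of replicates 1 to 4, and 96.9%, 76.2%, 76.6% and 96.8% of the arm regions. The difference was -7.89 ± 6.58 points (SD, n = 4), with an exact permutation p of 0.25, and it was -2.83 without replicates 2 and 3. The U regions outside the combined list numbered 13, 39, 53 and 4. Their median scores were 1.72, 1.23, 1.11 and 1.23, against 0.71, 0.74, 0.62 and 0.60 for the regions inside, so that the outside regions scored higher in every list. Of these outside regions 0 of 13, 6 of 39, 7 of 53 and 1 of 4 touched a region of another replicate. The scores and overlaps of outside regions were not set against those of the arms. Support for members was uneven too: replicates 1 to 4 touched 123, 71, 100 and 166 members, and 77, 24, 39 and 94 of these were touched by that list alone.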

How the data were processed

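H1 ChIP-seq of Oregon-R embryos, aged 14 to 16 h, was analysed from the authors' region lists: 1 list for each of 4 immunoprecipitated libraries and 1 combined list, with 827 of its 16190 regions on U. The submitters' processing notes name Bowtie 0.12.7 as a tool, and coordinates are FlyBase r5, per the file headers. No source used here names the region caller, its thresholds or the way replicates were combined. The deposited score of each region was found to be on a log2 scale, as it equals the log2 of a ratio of whole numbers plus 1 constant per list (denominators up to 5000 were tried). The lists hold no counts, so depth is unknown and no interval was given. Repeats and assembly gaps were not corrected for. No input values were used.

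The software was Python 3.11.15 with scipy 1.17.1, pandas 2.3.3, numpy 2.4.6 and, for plots, matplotlib 3.10.9. The overlap code was tested on 1200 simulated regions, with 0 differing from a count base by base. Values per replicate were compared by flipping the signs of the 4 values in all ways (an exact permutation test, two-sided), whose smallest p is 0.125, with Benjamini-Hochberg adjustment over 10 planned tests and, separately, 7 added after seeing the data. No result can pass 0.05. The planned log2 ratio of median scores was computed as a difference of medians, since the score is itself on a log2 scale.

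The members, the limit of 1300 bp and the tests were chosen with earlier results of these data known. Regions are named by a rule: the 10 of highest score, the 10 widest, those touched by 3 or 4 lists, the 3 blocks with most covered bases, the 3 longest gaps, and the 3 most and 3 least covered windows of 1 Mb. Alternatives were other overlap rules, reference sequences, width limits and classes, gaps joined, window sizes, regions of high score only, and leaving out each replicate or replicates 2 and 3.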

Additional observations from a re-analysis of the deposited data

How the results depend on the processing

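Of 115 recomputed values of the 17 tested results, 108 kept their direction and 7 reversed. With 4 values no test can pass 0.05, so only direction was judged. The difference in touched share from the major arms turned from -1.57 to 0.0305 with 50% of the region covered and to 0.0154 with the midpoint. At matched width, where the difference was 0.03, it ran from -0.94 to 0.66 when 1 replicate was left out, with -0.12 without replicate 1 and -0.94 without replicate 4. It was -0.0659 with width classes of 250 bp and 1.71 without replicates 2 and 3. The log2 ratio of median width, 0.03, became -0.0184 with regions below the median score dropped and -0.0352 against the Het sequences. Of 23 recomputed counts and untested values, 10 stayed close to the value reported. Close meant within 1.5 times for a count. For other values it meant within 1 SD, taken over the 4 replicate lists because a combined value has no SD of its own. Members touched by at least 1 list, 331 as reported, numbered 237 to 307 under the other settings, and narrow members, 333 as reported, numbered 267 up to 1200 bp and 442 up to 1500 bp. The 5 members touched by all lists became 2 with 50% covered and 3 with the midpoint, 8 to 15 when 1 replicate was left out and 31 without replicates 2 and 3, since fewer lists then had to touch. Blocks numbered 410 with gaps under 5000 bp and 119 under 20000 bp. Members with a repeated score rose from 490 to 746 after rounding to 3 decimals. Spearman's rho of width and score was -0.30 without narrow members. In windows of 500 kb the most covered held 40.1% and the least 5.61%. The causes were not tested, except where the setting itself fixes them. No paired analysis was possible because replicate numbers are shared only between H1 and input libraries, and no input values entered a comparison. Parts of the genome were compared within each replicate list. Unknown depth limits every statement about sequence without regions. A replicate standing far from the rest was looked for in 37 measures and was found in 0, where chance gives about 1 in 20. The check looks for 1 outlying value and cannot flag 2 that stand apart together. Replicates 2 and 3 did so in the share of their regions held by the combined list.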
